A study of Rattus norvegicus with 12 samples.

Results

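The genes described here encode subunits of the transcription factor AP-1 (*Fos*, *Fosb*, *Fosl1*, *Fosl2*, *Jun*, *Junb* and *Jund*), the zinc finger transcription factors Egr1 and Egr2, and the early response protein Ier3, measured in rat L6 myotubes. They were chosen by name, and a probe was assigned to a gene through the RefSeq accession it carries on the array. All 10 of these genes were found among the 16581 genes named on the arrays, with 15 probes between them. All 15 probes passed the filter on dim signal, and 13 were well above background on all 12 arrays. The other probes were that of *Fosb* and the second probe of *Egr2*.

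AP-1 is a dimer of a Jun protein with a Fos protein or with another Jun protein, and the subunits differ in how strongly they activate transcription. Immediate early genes such as *Fos*, *Junb* and *Egr1* are transcribed shortly after a stimulus without the need for new protein synthesis, in large part through serum response factor and its Elk partners downstream of MAP kinases, and their transcripts are usually short-lived. In muscle cells, AP-1 activity is known for its association with growth factor signalling in myoblasts, and Fos and Jun proteins can hold back differentiation.

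L6 is a line of rat muscle precursor cells that fuse to form myotubes when serum is lowered, and the cells of every group were differentiated in horse serum medium. The sample labels give 6 days of differentiation, while the methods of the study give another number of days. Myotubes were then exposed for 24 h to DMSO alone (the control), to 60 µM GR24, a synthetic analog of the plant hormones strigolactones, or to 60 µM pinosylvin or 60 µM resveratrol, which are plant stilbenes. Each of the 4 groups had 3 arrays, from 3 independent experiments on the same batch of cells, and 24 h was the only time analysed here. Replicates 1 and 2 of every group lay on the first slide and replicate 3 on the second.

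Each array was of 1 colour, and 58.0% to 64.3% of its 58717 spots gave a signal well above background. Levels are log2 of the processed signal relative to the 75th percentile of the array, so that a level of 0 equals that percentile, and levels of different probes are not comparable. A change is the difference of group means on this log2 scale, with its standard error (SE) and a Benjamini-Hochberg adjusted p from limma, and a gene was counted as higher or lower at an adjusted p under 0.05. In the bulk RNA of a culture, fewer cells of a type and less RNA per cell cannot be told apart.

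The muscle identity given by the labels was checked against marker genes. In the control, *Myog*, the myogenic regulator myogenin, had levels of 5.24, 5.25 and 5.08, and the skeletal muscle actin gene *Acta1* had levels of 5.29, 5.30 and 5.07. The embryonic myosin heavy chain gene *Myh3* had levels of 8.84, 8.97 and 8.75. All 7 of the 8 listed myotube markers that were named on the arrays were well above background on all 12 arrays. The proliferation marker *Mki67* was also well above background in the control, with levels of 4.38, 4.00 and 4.05, so transcripts of cycling cells were present beside those of differentiated muscle.

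Each of the 3 compounds changed some of the AP-1 and early response genes. With GR24, 5 of the 10 genes were higher than in the control (*Fosb*, *Fosl1*, *Junb*, *Egr1* and *Ier3*), 2 were lower (*Jun* and *Egr2*) and 3 did not pass. Among all 24279 probes tested, 31.5% were higher and 25.5% were lower in that comparison, and the median log2 fold change was 0.42 over the 10 genes and 0.03 over all probes. These shares of all probes are large, and the counts for the 10 genes are to be read against them. The GR24 calls of *Fosb* and *Egr2* were lost under several of the alternatives given below. *Fosl2* was counted by its brightest probe, which did not pass, while its 2 other probes were higher with GR24.

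With pinosylvin, 2 of the 10 genes were higher than in the control (*Fos* and *Egr1*), 1 was lower (*Fosl1*) and 7 did not pass, beside 8.28% of all probes higher and 8.27% lower. At an unadjusted p under 0.05, 5 genes were higher and 1 lower with pinosylvin. The median log2 fold change was 0.11 over the 10 genes and 0.05 over all probes. With resveratrol, 3 genes were higher (*Fos*, *Egr1* and *Ier3*), 0 were lower by limma and 7 did not pass, beside 7.99% of all probes higher and 8.99% lower. At an unadjusted p under 0.05, 3 genes were higher and 2 lower with resveratrol, and the medians were 0.10 over the 10 genes and 0.01 over all probes. With the replicate number as a block, 5 genes were higher and 1 lower with GR24, 3 higher and 1 lower with pinosylvin, and 4 higher and 2 lower with resveratrol. The number of genes that passed is then the same for GR24 and resveratrol, while the numbers over all 24279 probes differ. In that fit 8799 probes were higher and 7365 lower with GR24, 3954 and 2993 with pinosylvin, and 3419 and 3350 with resveratrol. The 3 comparisons with the control share the same control arrays.

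Between compounds, GR24 against pinosylvin gave 3 genes higher with GR24 (*Fosl1*, *Junb* and *Ier3*) and 3 lower (*Jun*, *Egr1* and *Egr2*), beside 29.6% and 26.8% of all probes. GR24 against resveratrol gave 5 higher (*Fosb*, *Fosl1*, *Junb*, *Egr1* and *Ier3*) and 1 lower (*Jun*), beside 27.4% and 23.9%. Pinosylvin against resveratrol gave 1 higher (*Egr1*) and 2 lower (*Fosl1* and *Ier3*), beside 7.68% and 6.85%. In these comparisons the median over the 10 genes was 0.07, 0.32 and 0.12, against -0.0031, 0.02 and 0.02 over all probes. With the replicate number as a block, the probes called across the array came to 3954 higher and 2993 lower for pinosylvin against the control, from 2010 and 2009. They came to 3419 and 3350 for resveratrol against the control, from 1941 and 2182, and to 3507 and 2816 for pinosylvin against resveratrol, from 1864 and 1664.

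**Figure D1:**
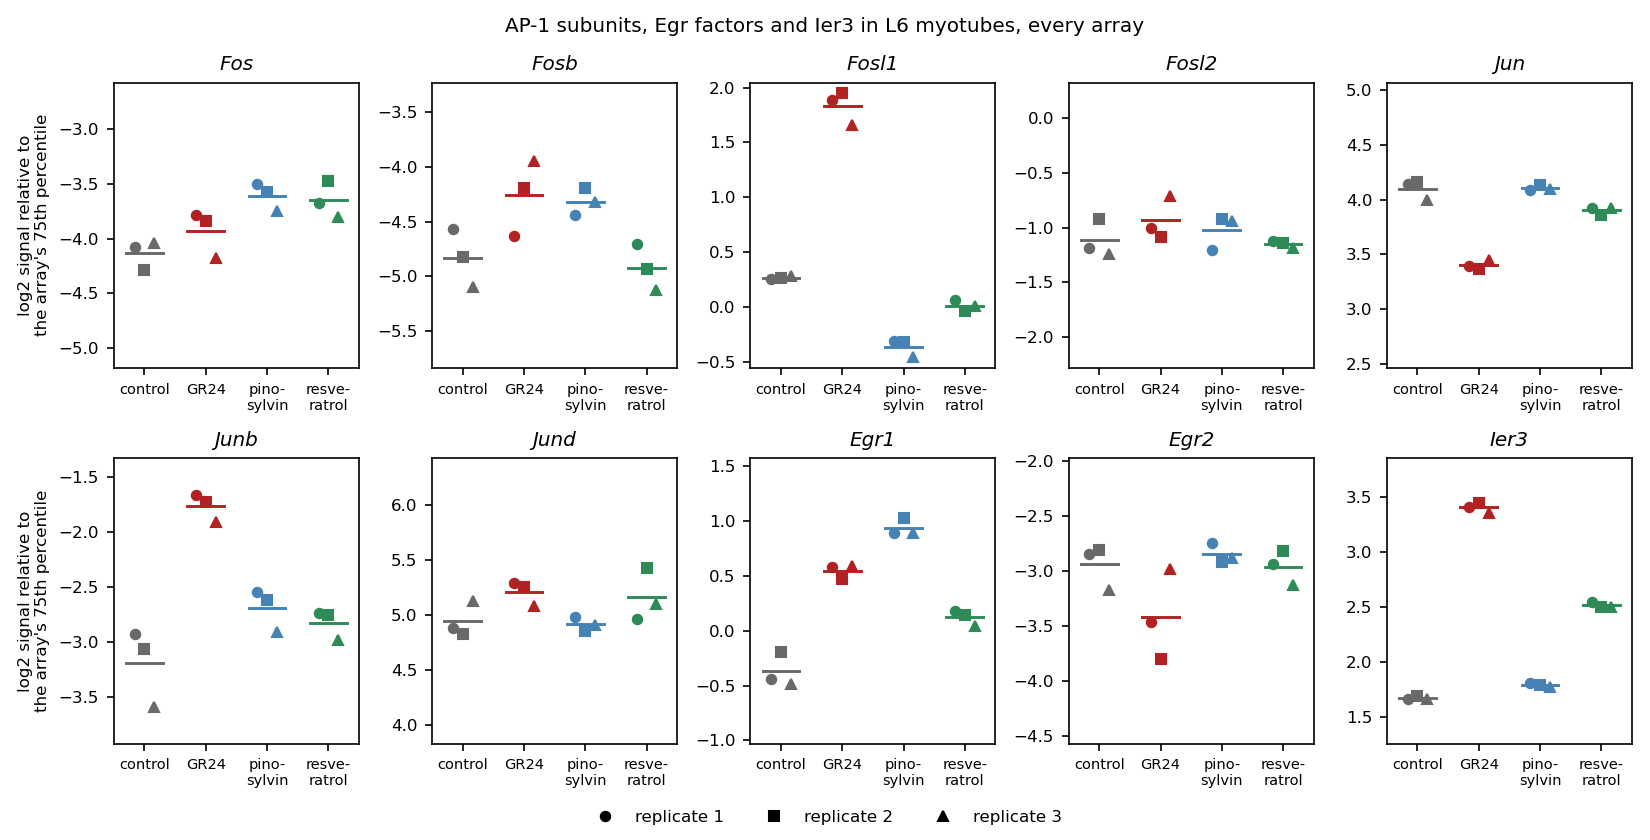
Level of each of the 10 genes on every array, as log2 signal relative to the 75th percentile of the array, for the probe with the highest mean; symbols are replicates, the bar is the group mean, and all panels span the same log2 range. *Fosl1*, *Junb* and *Ier3* lie highest on the 3 GR24 arrays, *Jun* lies lowest there, and *Egr1* lies highest on the 3 pinosylvin arrays.

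Among the Fos proteins, *Fosl1*, which encodes Fra-1, a Fos relative that lacks a strong activation domain, moved in opposite directions with the compounds. Its level was 0.26, 0.26 and 0.28 on the control arrays, 1.89, 1.95 and 1.66 with GR24, -0.31, -0.31 and -0.46 with pinosylvin, and 0.07, -0.04 and 0.01 with resveratrol. The 4 groups did not overlap, with GR24 highest, then the control, resveratrol and pinosylvin. With GR24 *Fosl1* rose 2.96-fold (log2 fold change 1.56, SE 0.082, adjusted p = 8.28e-08), and the difference was 1.66 on the first slide and 1.38 on the second. With pinosylvin it fell by 0.63 on the log2 scale (SE 0.082, adjusted p = 4.84e-04), with -0.58 and -0.74 on the slides. The resveratrol difference of -0.25 did not pass (adjusted p = 0.0589), although its 3 arrays all lay below the control. With the replicate number as a block it passed, with adjusted p = 0.0285. It also passed with the slide as a block (0.0193), quantile normalization (0.0341), normexp and quantile normalization (0.0381), the deposited table (0.0498), the percentile over probes above background on all arrays (0.0186), trend and robust settings (0.0475) and the first slide alone (0.0496).

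*Fos*, the prototype of the family, gave a dim signal, between 38.4 and 73.2 brightness units over the 12 arrays, that was well above background on all of them. Its level was -4.08, -4.28 and -4.04 in the control, -3.79, -3.84 and -4.18 with GR24, -3.51, -3.57 and -3.75 with pinosylvin, and -3.68, -3.47 and -3.80 with resveratrol. The pinosylvin and resveratrol arrays all lay above the control arrays, while those of GR24 overlapped them. *Fos* rose with pinosylvin (log2 fold change 0.52, SE 0.13, adjusted p = 0.0180) and with resveratrol (0.48, SE 0.13, adjusted p = 0.0260), and the GR24 value was 0.20 (adjusted p = 0.206). With quantile normalization the pinosylvin and resveratrol values were 0.54 and 0.61 and did not pass (adjusted p = 0.0876 and 0.0566). With normexp and the 75th percentile they were smaller, at 0.20 and 0.13 (adjusted p = 0.161 and 0.382), and with normexp and quantile normalization they were 0.18 and 0.23 (adjusted p = 0.203 and 0.0975). In the deposited table they were 0.27 and 0.35 (adjusted p = 0.172 and 0.0811). Both calls were also lost with no filter on dim probes (adjusted p = 0.0585 and 0.0766) and with trend and robust settings (adjusted p = 0.0501 and 0.0694). The pinosylvin call was also lost without control replicate 2, pinosylvin replicate 1 or pinosylvin replicate 2 (log2 fold change 0.45, 0.47 and 0.51). The resveratrol call was lost without control replicate 1 or 2 or resveratrol replicate 1 or 2 (0.51, 0.41, 0.50 and 0.39). GR24 against the control passed without GR24 replicate 3 (0.32, adjusted p = 0.0417) and on the first slide alone (adjusted p = 0.0196). The difference between GR24 and pinosylvin, -0.32 (adjusted p = 0.0512), passed with the replicate block (adjusted p = 0.0309), and without GR24 replicate 1 (-0.40) or pinosylvin replicate 3 (-0.39). It also passed with the slide as a block (adjusted p = 0.0221), with only probes above background on all arrays (0.0442) and with the percentile over these (0.0458). The difference between GR24 and resveratrol, -0.28 (adjusted p = 0.0911), passed with the slide as a block (adjusted p = 0.0433). Within the slides, the *Fos* difference from the control was 0.37 and -0.13 with GR24, 0.64 and 0.29 with pinosylvin, and 0.60 and 0.24 with resveratrol.

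*Fosb*, a close relative of *Fos* with a similar activation domain, gave a signal of only 25.8 to 64.3 units, and was well above background on 2 of the 3 control arrays and on all others. Its level was -4.57, -4.82 and -5.10 in the control, -4.63, -4.20 and -3.95 with GR24, -4.44, -4.20 and -4.32 with pinosylvin, and -4.71, -4.93 and -5.12 with resveratrol. GR24 replicate 1 lay within the range of the control, and the other GR24 arrays lay above it. *Fosb* was 1.49-fold higher with GR24 (log2 fold change 0.57, SE 0.19, adjusted p = 0.0227). That call was lost without control replicate 2 or 3 or GR24 replicate 2 or 3 (log2 fold change 0.58, 0.44, 0.54 and 0.42), and with normexp and the 75th percentile, where the value was 0.18 (adjusted p = 0.127). It was also lost with no filter on dim probes (adjusted p = 0.0543), with only the 6 arrays compared (0.0632), with trend and robust settings (0.0515) and on the first slide alone (0.219). Within the slides the GR24 difference was 0.28 and 1.15. The pinosylvin value of 0.51 (adjusted p = 0.0926) and the resveratrol value of -0.09 (adjusted p = 0.839) did not pass. GR24 exceeded resveratrol by 0.66 (adjusted p = 0.0126), a call that was lost without resveratrol replicate 3 (0.56, adjusted p = 0.0506). With normexp the value was smaller and did not pass, at 0.24 with the 75th percentile (adjusted p = 0.0515) and 0.19 with quantile normalization (adjusted p = 0.0544). On the first slide alone it was 0.40 and did not pass (adjusted p = 0.103).

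*Fosl2*, which encodes Fra-2, was read by 3 probes. Over the 12 arrays its brightest probe stayed between -1.24 and -0.71, and none of the 6 comparisons passed by it. The changes from the control were 0.18 with GR24 (95% interval -0.09 to 0.45), 0.10 with pinosylvin (-0.17 to 0.36) and -0.03 with resveratrol (-0.30 to 0.23). The 2 other probes of *Fosl2*, for the same accession, were higher with GR24 by 0.37 (SE 0.088, adjusted p = 0.00442) and 0.30 (SE 0.080, adjusted p = 0.00784), and the arrays of these groups did not overlap. Both were also higher with GR24 than with pinosylvin, by 0.36 and 0.36 (adjusted p = 0.00537 and 0.00316), and than with resveratrol, by 0.28 and 0.21 (adjusted p = 0.0212 and 0.0482). The probes differ in their calls, and their mean passed with GR24 (0.28, adjusted p = 0.0138).

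Of the Jun proteins, *Jun* itself, which encodes the classical partner of Fos, passed the test against the control with GR24, where it was lower. Its level was 4.14, 4.16 and 4.00 in the control, 3.40, 3.37 and 3.45 with GR24, 4.09, 4.13 and 4.09 with pinosylvin, and 3.92, 3.86 and 3.92 with resveratrol. The GR24 arrays lay below those of every other group, the pinosylvin arrays overlapped the control, and the resveratrol arrays lay just below it. With GR24 *Jun* was 1.62-fold lower (log2 fold change -0.70, SE 0.062, adjusted p = 4.38e-06), with -0.77 and -0.55 on the slides. A second probe of *Jun* was lower as well (log2 fold change -0.56, SE 0.11, adjusted p = 0.00123). With pinosylvin the value was 0.0040 (95% interval -0.13 to 0.14), and with resveratrol it was -0.20 (adjusted p = 0.0510). The resveratrol difference passed with the replicate block (adjusted p = 0.0332) and without control replicate 3 (-0.25, adjusted p = 0.0218), and was -0.26 and -0.07 on the slides. It also passed with the slide as a block (adjusted p = 0.0235), quantile normalization (0.0445), normexp and quantile normalization (0.0369), only probes above background on all arrays (0.0452), scaling to the percentile of these (0.0349), trend and robust settings (0.0330) and the first slide alone (0.0336).

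*Junb*, whose product is a weaker activator than Jun and can restrain it, moved the other way. Its level was -2.93, -3.07 and -3.60 in the control, -1.66, -1.73 and -1.91 with GR24, -2.55, -2.62 and -2.91 with pinosylvin, and -2.74, -2.75 and -2.99 with resveratrol. All GR24 arrays lay above all others, and replicate 3 was the lowest array in each group. With GR24 *Junb* rose 2.69-fold (log2 fold change 1.43, SE 0.17, adjusted p = 3.56e-05), with 1.30 and 1.69 on the slides. The pinosylvin value of 0.50 and the resveratrol value of 0.37 did not pass (adjusted p = 0.0693 and 0.177). With the replicate number as a block both passed, with adjusted p = 0.00306 and 0.0124, and the pinosylvin value also passed without control replicate 1 (0.64, adjusted p = 0.0423) and on the first slide alone (adjusted p = 0.0171). With the slide as a block the adjusted p were 0.00201 and 0.00975. Within the slides they were 0.41 and 0.68 with pinosylvin, and 0.25 and 0.61 with resveratrol.

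*Jund*, the Jun protein that is usually expressed without a stimulus, did not pass in any of the 6 comparisons. Its brighter probe ranged from 4.83 to 5.43 over the 12 arrays, and the changes from the control were 0.27 with GR24 (95% interval -0.01 to 0.54), -0.03 with pinosylvin (-0.31 to 0.25) and 0.22 with resveratrol (-0.06 to 0.50). The GR24 value lay near the threshold (adjusted p = 0.0954): it passed with quantile normalization (0.34, adjusted p = 0.0489), with normexp and quantile normalization (0.32, adjusted p = 0.0490), in the deposited table (0.34, adjusted p = 0.0493), on the first slide alone (0.42, adjusted p = 0.0498), without control replicate 3 (0.36, adjusted p = 0.0403) and as the mean of the 2 *Jund* probes (0.28, adjusted p = 0.0119). On the second slide it was -0.05. The second probe, for another *Jund* accession, gave 0.29 with GR24 (adjusted p = 0.0825). The difference between GR24 and pinosylvin, 0.30 (adjusted p = 0.0672), passed with quantile normalization (0.40, adjusted p = 0.0228), in the deposited table (0.40, adjusted p = 0.0227), and with normexp under either scaling (0.32 and 0.41, adjusted p = 0.0407 and 0.0159). It also passed with the percentile over probes above background on all arrays (adjusted p = 0.0495), the 6 arrays compared (0.0268), trend and robust settings (0.0423) and the mean of the probes (0.0150).

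The zinc finger gene *Egr1*, a rapid target of growth factor and stress signalling, rose with all 3 compounds, and to different heights. Its level was -0.44, -0.19 and -0.48 in the control, 0.58, 0.47 and 0.59 with GR24, 0.89, 1.03 and 0.89 with pinosylvin, and 0.18, 0.14 and 0.04 with resveratrol. No array of 1 group overlapped those of another, and the order was pinosylvin, GR24, resveratrol and control. The increase was 2.48-fold with pinosylvin (log2 fold change 1.31, SE 0.087, adjusted p = 4.47e-06), 1.89-fold with GR24 (0.92, SE 0.087, adjusted p = 7.22e-06) and 1.41-fold with resveratrol (0.49, SE 0.087, adjusted p = 0.00324). The neighbours in this order differed as well, GR24 from pinosylvin by -0.39 (adjusted p = 0.00301) and from resveratrol by 0.42 (adjusted p = 0.00202). On the slides the change from the control was 0.84 and 1.07 with GR24, 1.27 and 1.38 with pinosylvin, and 0.48 and 0.52 with resveratrol.

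*Egr2*, a relative of *Egr1* best known from the myelination of nerves, was represented by 2 probes for the same accession that differed. The brighter probe had levels of -2.84, -2.81 and -3.17 in the control, -3.47, -3.81 and -2.99 with GR24, -2.74, -2.91 and -2.88 with pinosylvin, and -2.94, -2.82 and -3.13 with resveratrol. GR24 replicates 1 and 2 lay below all other arrays, and GR24 replicate 3 lay among them. By this probe *Egr2* was 1.39-fold lower with GR24 (log2 fold change -0.48, SE 0.18, adjusted p = 0.0465), and with the replicate number as a block this call was lost (adjusted p = 0.0615). It was also lost without control replicate 1 or 2 or GR24 replicate 1 or 2 (-0.43, -0.41, -0.45 and -0.29) and with quantile normalization (-0.38, adjusted p = 0.0970), and on the second slide the value was 0.18, against -0.81 on the first. It was lost as well with no filter on dim probes (adjusted p = 0.104), the percentile over probes above background on all arrays (0.0575) and only the 6 arrays compared (0.119). The difference between GR24 and pinosylvin was -0.57 (adjusted p = 0.0216), and this call was lost without GR24 replicate 1 or 2 or pinosylvin replicate 1 (-0.55, -0.38 and -0.52), with no filter (adjusted p = 0.0530) and with only the 6 arrays compared (0.0570). Against resveratrol the value was -0.46 (adjusted p = 0.0613), and it passed without GR24 replicate 3 (-0.67, adjusted p = 0.00385), with normexp and quantile normalization (-0.30, adjusted p = 0.0283), in the deposited table (-0.41, adjusted p = 0.0255) and on the first slide alone (-0.76, adjusted p = 0.00313). The mean of the 2 *Egr2* probes is not used for GR24, since the dimmer probe was not well above background on 2 of its arrays. Pinosylvin and resveratrol did not pass against the control by this probe, at 0.09 (95% interval -0.32 to 0.50) and -0.02 (-0.43 to 0.39).

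The dimmer *Egr2* probe had levels of -3.77, -3.63 and -4.24 in the control, -2.87, -2.87 and -2.67 with pinosylvin, and a mean of -3.09 with resveratrol. It was well above background on 1 of the 3 GR24 arrays, with levels of -4.94, -4.83 and -4.20 there. By this probe *Egr2* was higher with pinosylvin (log2 fold change 1.08, SE 0.20, adjusted p = 0.00421) and with resveratrol (0.79, SE 0.20, adjusted p = 0.0202), without overlap with the control. No difference is given for GR24 by this probe, since 2 of the 3 GR24 arrays were not well above background. For the stilbenes the rise is seen with the dimmer probe only.

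*Ier3*, which encodes an early response protein linked to cell survival and feedback on MAP kinase signalling, was read from a probe with 10 spots on each array. Its level was 1.67, 1.69 and 1.66 in the control, 3.41, 3.45 and 3.36 with GR24, 1.81, 1.80 and 1.78 with pinosylvin, and 2.54, 2.50 and 2.50 with resveratrol. No group overlapped another, and the order was GR24, resveratrol, pinosylvin and control. *Ier3* rose 3.33-fold with GR24 (log2 fold change 1.74, SE 0.052, adjusted p = 2.2e-09) and 1.79-fold with resveratrol (0.84, SE 0.052, adjusted p = 7.24e-06). The pinosylvin difference of 0.12 did not pass (95% interval 0.0043 to 0.24, adjusted p = 0.153). On the slides the change was 1.75 and 1.70 with GR24, 0.84 and 0.84 with resveratrol, and 0.12 and 0.12 with pinosylvin.

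**Figure D2:**
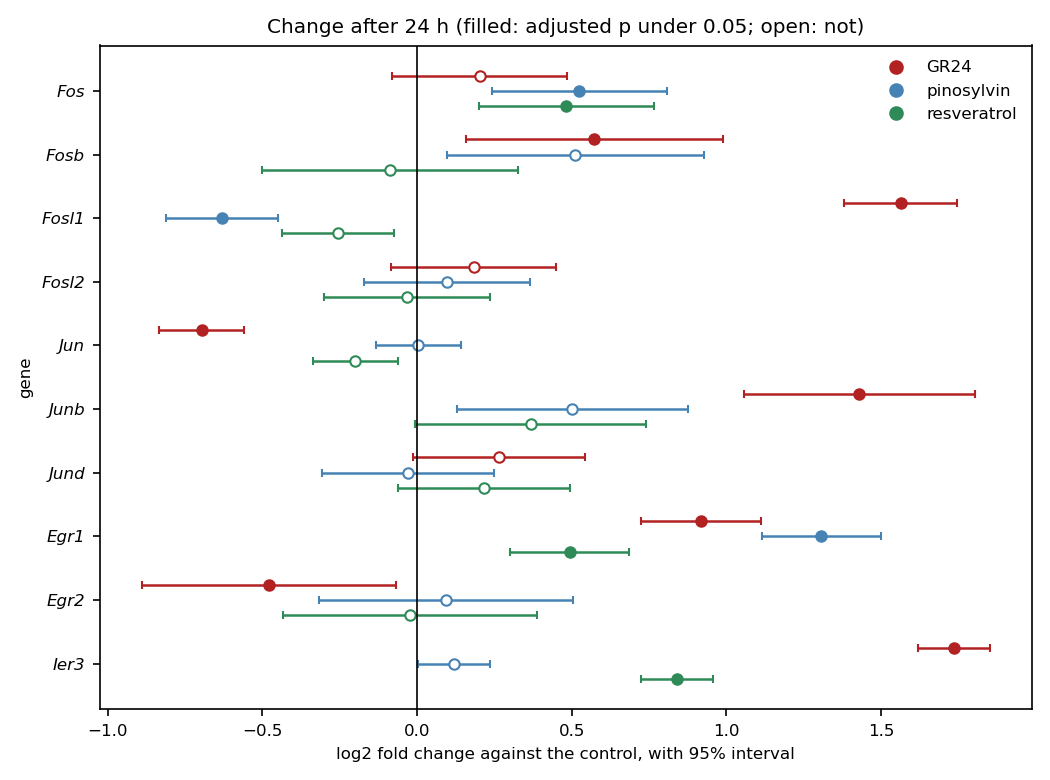
Change of each gene against the control as log2 fold change, with points for the fitted value, bars for its 95% interval and filled points for an adjusted p under 0.05. *Fosl1*, *Junb* and *Ier3* lie farthest to the right with GR24, at 1.56, 1.43 and 1.74, and *Egr1* with pinosylvin, at 1.31.

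Pinosylvin and resveratrol share the stilbene core, and resveratrol carries an additional hydroxyl group on the ring that is bare in pinosylvin. At the same dose and time, *Egr1* was higher with pinosylvin than with resveratrol by 0.81 on the log2 scale (95% interval 0.62 to 1.01, adjusted p = 2.07e-04). *Ier3* differed the other way, by -0.72 (-0.84 to -0.60, adjusted p = 2.51e-05), and so did *Fosl1*, by -0.38 (-0.56 to -0.19, adjusted p = 0.0123). In each case the 3 arrays of the 2 compounds did not overlap. The *Fosl1* call was lost with no filter on dim probes (adjusted p = 0.0531). On the slides the differences were 0.79 and 0.85 for *Egr1*, -0.72 and -0.73 for *Ier3*, and -0.33 and -0.47 for *Fosl1*.

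The other 7 genes did not pass between the stilbenes, which does not show that the compounds act alike on them. The intervals were -0.24 to 0.32 for *Fos*, -0.14 to 0.40 for *Fosl2*, -0.24 to 0.51 for *Junb*, -0.53 to 0.03 for *Jund* and -0.29 to 0.53 for *Egr2*. For *Jun* the difference was 0.20 (0.07 to 0.34, adjusted p = 0.0525), and it passed with the replicate number as a block (adjusted p = 0.0331), the slide as a block (0.0236), only probes above background on all arrays (0.0464) and trend and robust settings (0.0336). For *Fosb* it was 0.60 (0.18 to 1.01, adjusted p = 0.0586), and it passed with the slide as a block (adjusted p = 0.0454) and with only the 6 arrays compared (0.0346).

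Direct comparison of GR24 with the stilbenes put *Fosl1* first, at 2.19 against pinosylvin (SE 0.082, adjusted p = 1.13e-08) and 1.82 against resveratrol (SE 0.082, adjusted p = 5.7e-08). *Ier3* was higher with GR24 by 1.61 (SE 0.052, adjusted p = 4.55e-09) and 0.89 (SE 0.052, adjusted p = 3.27e-07), and *Junb* was higher with GR24 by 0.93 and 1.06 (SE 0.17, adjusted p = 8.01e-04 and 3.74e-04). *Jun* was lower with GR24 than with either stilbene, at -0.70 and -0.50 (SE 0.062, adjusted p = 4.74e-06 and 6.94e-05). For these 4 genes all 3 GR24 arrays lay outside the range of the stilbene arrays. *Egr1* lay between the stilbenes, below pinosylvin and above resveratrol.

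The genes whose pattern over the 12 arrays was most like that of *Fosl1* and *Ier3*, the genes of widest range between group means (2.19 and 1.74), were found by the root mean square difference after the control mean was subtracted. For *Fosl1* they were *Duox2*, *Nemp1* and *Shcbp1l*, with differences of 0.154, 0.164 and 0.218 on the log2 scale. For *Ier3* they were *Khk*, *Tsku* and *Dusp5*, with 0.0953, 0.10 and 0.102. The group means of *Khk* relative to the control were 1.78 with GR24, 0.04 with pinosylvin and 0.84 with resveratrol, beside 1.74, 0.12 and 0.84 for *Ier3*.

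Partner factors that dimerise with AP-1 subunits were examined as a list of 7 genes, of which 6 were named on the arrays and 5 were tested. With GR24, 3 were higher, 1 was lower and 1 did not pass, beside 31.5% of all probes higher and 25.5% lower, with a median log2 fold change of 0.42. The repressor *Jdp2*, which competes with Fos for Jun, fell by 0.91 (SE 0.068, adjusted p = 1.19e-06), and *Atf2*, *Atf3* and *Atf7* rose by 0.77, 0.73 and 0.42. With pinosylvin none of the 5 passed by limma, beside 8.28% of all probes higher and 8.27% lower, 1 was higher at an unadjusted p under 0.05, and the median was 0.04. *Atf2* had the largest value, 0.31 (adjusted p = 0.103). With resveratrol the stress-induced factor *Atf3* rose by 0.39 (SE 0.068, adjusted p = 0.00284), 4 did not pass, and the median was -0.04, beside 7.99% of all probes higher and 8.99% lower. Over the alternatives, the count lower ran from 1 to 2 with GR24 and from 0 to 1 with resveratrol, and the count higher with pinosylvin from 0 to 1. Here and in the lists that follow, genes beyond the naming rule were chosen after their values were seen, where a count was 5 or fewer.

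Other immediate early genes formed a list of 31, all on the arrays, of which 29 were tested and *Egr3* and *Egr4* were too dim. With GR24, 15 were higher, 10 were lower and 4 did not pass, with a median of 0.51, beside 31.5% of all probes higher and 25.5% lower. The small Maf protein gene *Maff* rose 3.51-fold (log2 fold change 1.81, SE 0.078, adjusted p = 2.07e-08), the Krüppel-like factor gene *Klf4* rose 3.49-fold (1.80, SE 0.091, adjusted p = 6.17e-08) and the kinase gene *Sgk1* rose 2.28-fold (1.19, SE 0.059, adjusted p = 5.9e-08). The matricellular genes *Ccn2* and *Ccn1*, known targets of the Yap and serum response factor pathways, were 3.55-fold (-1.83, SE 0.071, adjusted p = 1.05e-08) and 3.17-fold lower (-1.66, SE 0.092, adjusted p = 1.27e-07). *Arc*, best known from neurons, was 2.64-fold lower (-1.40, SE 0.11, adjusted p = 1.86e-06). Members of the list passed the test in both directions with GR24, and whether the list moved as a group was not tested.

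With pinosylvin, 7 of these 29 genes were higher, 1 was lower and 21 did not pass, with a median of 0.22, beside 8.28% of all probes higher and 8.27% lower. With resveratrol, 9 were higher, 0 were lower by limma (2 at an unadjusted p under 0.05) and 20 did not pass, with a median of 0.17, beside 7.99% of all probes higher and 8.99% lower. *Sgk1* rose by 0.89 with pinosylvin (SE 0.059, adjusted p = 4.47e-06) and by 0.78 with resveratrol (SE 0.059, adjusted p = 2.21e-05). The gene that was lower with pinosylvin was *Ccn2*, at -0.29 (adjusted p = 0.0182). *Ccn1* had -0.13 with pinosylvin and -0.02 with resveratrol, and neither passed. Over the alternatives, the count higher with pinosylvin ran from 3 to 13, and the count lower from 0 to 2 with either stilbene. With the replicate number as a block, 13 were higher and 2 lower with pinosylvin, and 12 were higher and 2 lower with resveratrol. Of all 24279 probes, that fit gave 3954 higher and 2993 lower with pinosylvin, and 3419 and 3350 with resveratrol.

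Kinases and factors that lie upstream, the MAP kinases and the serum response factor arm, were a list of 26, of which 23 were on the arrays and 19 were tested. With GR24, 6 were higher, 4 were lower and 9 did not pass, with a median of -0.0047, beside 31.5% of all probes higher and 25.5% lower. *Rps6ka1*, a kinase activated by MAP kinases, rose 2.12-fold (log2 fold change 1.08, SE 0.11, adjusted p = 1.4e-05). The p38 family gene *Mapk11* was well above background on the 3 control arrays and on no GR24 array, so its signal was at least 4.08-fold lower (adjusted p = 1.63e-06), the GR24 side being set to the lowest signal well above background where the probe was dimmer. *Srf*, the serum response factor gene, fell by 0.80, *Map2k2* by 0.62 and *Rps6ka3* by 0.36.

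With pinosylvin, *Mapk11* was the only gene of this list that passed, at -0.88 (SE 0.18, adjusted p = 0.00740) with 2 of 3 arrays well above background, and 18 did not pass, with a median of 0.04. At an unadjusted p under 0.05, 1 gene was higher and 3 were lower with pinosylvin, against 0 and 1 by limma, and of all probes 8.28% were higher and 8.27% lower. With resveratrol, *Elk3* rose by 0.30 (SE 0.069, adjusted p = 0.0134) and *Map2k3* by 0.23 (SE 0.064, adjusted p = 0.0322), and 16 did not pass, with a median of 0.04, while 0 were lower by limma. At an unadjusted p under 0.05, 6 were higher and 1 was lower with resveratrol. Of all probes 7.99% were higher and 8.99% lower with resveratrol. Over the alternatives, the count higher ran from 0 to 1 with pinosylvin and from 1 to 5 with resveratrol, and the count lower from 0 to 2 with either. With the replicate number as a block, 1 was higher with pinosylvin, and 5 were higher and 1 lower with resveratrol. That fit gave 3954 of all 24279 probes higher with pinosylvin, and 3419 higher and 3350 lower with resveratrol. Changes in transcript say nothing of the activity of these kinases, which was not measured here.

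Feedback inhibitors of these pathways were a list of 17, of which 16 were on the arrays and 14 were tested. With GR24, 6 were higher, 2 were lower and 6 did not pass, with a median of 0.19, beside 31.5% of all probes higher and 25.5% lower. *Dusp5*, a nuclear phosphatase of MAP kinases, rose 3.47-fold with GR24 (log2 fold change 1.79, SE 0.070, adjusted p = 1.04e-08) and 1.60-fold with resveratrol (0.68, SE 0.070, adjusted p = 1.33e-04), and had 0.07 with pinosylvin (adjusted p = 0.601). *Dusp8* and *Spry2* fell with GR24 by 0.78 and 0.68. With pinosylvin, *Nab2*, a corepressor of Egr factors, rose by 0.43 and the phosphatase gene *Dusp6* by 0.37, 12 did not pass, and the median was 0.17. *Dusp1* had the largest pinosylvin value, 0.44 (adjusted p = 0.0682). With resveratrol, *Dusp5* and *Spry2* (0.62) rose, 12 did not pass, and the median was 0.14. Over the alternatives, the count higher with pinosylvin ran from 2 to 4. It was 4 with the replicate number as a block, beside 3954 of all 24279 probes higher in that fit. With either stilbene 0 were lower by limma, and 0 at an unadjusted p under 0.05. Of all probes 8.28% were higher and 8.27% lower with pinosylvin, and 7.99% and 8.99% with resveratrol.

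Textbook target genes of AP-1 were a list of 16, all on the arrays, of which 11 were tested. The matrix metalloproteinase genes *Mmp3*, *Mmp9*, *Mmp10* and *Mmp13* and the growth factor gene *Areg* did not reach the filter. With GR24, 3 were higher, 5 were lower and 3 did not pass, with a median of 0.06, beside 31.5% of all probes higher and 25.5% lower. The chemokine gene *Ccl2* rose 3.64-fold (log2 fold change 1.87, SE 0.11, adjusted p = 2.07e-07), *Plaur* by 0.83 and *Cd44* by 0.23, while the urokinase gene *Plau* was 4.59-fold lower (-2.20, SE 0.13, adjusted p = 1.69e-07). *Hbegf*, *Spp1* and *Ccnd1* fell by 0.94, 0.53 and 0.21. *Plaur* encodes the receptor of the protein that *Plau* encodes, and the transcripts moved in opposite directions.

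*Ccl2* also rose with pinosylvin, by 1.27 (SE 0.11, adjusted p = 2.93e-05), and with resveratrol, by 1.57 (SE 0.11, adjusted p = 1.5e-05). With pinosylvin it was the 1 target gene that was higher, *Cd44* and *Timp1* fell by 0.29 and 0.30, 8 did not pass, and the median was -0.10. With resveratrol it was again the 1 gene that was higher, *Plau*, *Timp1*, *Plaur* and *Cd44* fell by 0.88, 0.55, 0.35 and 0.24, 6 did not pass, and the median was -0.14. *Plau* had -0.31 with pinosylvin (adjusted p = 0.130). Over the alternatives, the count lower ran from 0 to 3 with pinosylvin and from 2 to 4 with resveratrol. Of all probes 8.28% were higher and 8.27% lower with pinosylvin, and 7.99% and 8.99% with resveratrol.

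Markers of the state of the cells moved with the treatments too. With GR24, 6 of 7 myotube markers were lower and none was higher, with a median of -1.29, beside 31.5% of all probes higher and 25.5% lower, and *Myog* and *Acta1* were 57.0-fold (log2 fold change -5.83, SE 0.15, adjusted p = 5.53e-10) and 14.8-fold lower (-3.88, SE 0.078, adjusted p = 2.4e-10). *Ckm*, *Actn2* and *Tnnt3* had -2.58, -1.29 and -0.94, *Myh3* was 2.01-fold lower, and *Des* did not pass. The mean level of the 7 markers was 3.32, 3.35 and 3.13 on the control arrays, 1.08, 0.98 and 1.05 with GR24, 3.65, 3.64 and 3.47 with pinosylvin, and 3.00, 3.01 and 2.88 with resveratrol. With pinosylvin *Myog* (0.73, adjusted p = 0.00654) and *Tnnt3* (0.54) were higher and 5 markers did not pass, with a median of 0.31, beside 8.28% of all probes higher and 8.27% lower. With resveratrol *Ckm* (-1.04, adjusted p = 5.97e-04), *Myog* (-0.51) and *Myh3* (-0.30) were lower and 4 did not pass, with a median of -0.30, beside 7.99% of all probes higher and 8.99% lower.

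The cycling cell markers *Mki67*, *Cdk1* and *Ccnb1*, 3 of 4 listed, were lower with every compound, beside 25.5% of all probes lower with GR24, 8.27% with pinosylvin and 8.99% with resveratrol. Their medians were -2.83 with GR24, -1.65 with pinosylvin and -0.81 with resveratrol, and their mean level was 3.68, 3.58 and 3.51 on the control arrays, 0.80, 0.85 and 0.61 with GR24, 2.00, 2.09 and 1.89 with pinosylvin, and 2.66, 2.84 and 2.62 with resveratrol. Of the markers of undifferentiated cells, 6 of 7 were tested, and the shares of all probes higher were 31.5%, 8.28% and 7.99% with the 3 compounds. With GR24, *Vim*, *Myf5* and *Col1a1* fell by 0.91, 0.88 and 0.81, *Pdgfra* rose by 0.23 and the median was -0.58. With pinosylvin, *Id1*, *Vim* and *Col1a1* fell by 0.77, 0.47 and 0.34, *Pdgfra* rose by 0.43 and the median was -0.26. With resveratrol, *Vim* and *Col1a1* fell by 0.63 and 0.43, *Pdgfra* rose by 0.35 and the median was -0.02. *Pax7*, the marker of muscle stem cells, was dim, at -4.79 to -3.95 over the 12 arrays, and did not pass. The part that these shifts in muscle, cycling and precursor transcripts have in the changes of the AP-1 and early response genes was not tested.

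The promoters of *Fosl1*, *Junb* and *Egr1* are shown because these genes rose with GR24 without overlap with the control and lie in the RefSeq promoter table of the rat assembly GRCr8, which held 7 of the 10 genes. *Fos*, *Jun* and *Ier3* are not shown. The 250 bases directly upstream of the annotated gene start were searched on both strands for the AP-1 element TGANTCA, the cAMP response element TGACGTCA, the antioxidant response element core TGACNNNGC, the Egr element GCGNGGGCG and the serum response element, which is CC, then 6 letters of A or T, then GG. Capitals mark a match, and each window reads toward the gene start: chr1:212183635-212183884 (+ strand) for *Fosl1*, chr19:40080876-40081125 (+ strand) for *Junb* and chr18:26736828-26737077 (+ strand) for *Egr1*.
Fosl1: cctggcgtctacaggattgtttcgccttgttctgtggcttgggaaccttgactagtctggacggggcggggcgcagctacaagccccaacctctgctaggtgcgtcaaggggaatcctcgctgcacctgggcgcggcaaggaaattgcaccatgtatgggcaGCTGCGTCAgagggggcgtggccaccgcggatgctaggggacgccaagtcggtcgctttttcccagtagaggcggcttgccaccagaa
Junb: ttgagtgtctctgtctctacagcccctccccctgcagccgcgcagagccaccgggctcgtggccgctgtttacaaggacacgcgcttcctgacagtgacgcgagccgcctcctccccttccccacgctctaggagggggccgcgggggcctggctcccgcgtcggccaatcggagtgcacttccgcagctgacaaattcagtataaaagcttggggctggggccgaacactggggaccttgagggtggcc
Egr1: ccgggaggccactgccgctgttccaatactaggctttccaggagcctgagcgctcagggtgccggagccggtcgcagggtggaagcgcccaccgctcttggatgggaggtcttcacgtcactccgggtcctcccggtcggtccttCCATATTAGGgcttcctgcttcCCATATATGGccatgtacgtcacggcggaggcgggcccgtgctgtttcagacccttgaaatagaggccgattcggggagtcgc

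*Egr1* had 2 matches to the serum response element, at -105 to -96 and at -83 to -74 from the gene start, and 0 to the others. *Fosl1* had 1 match, to the antioxidant response element core on the reverse strand, at -88 to -80, and *Junb* had none in this window. All 7 genes of the table were searched. *Jund* had 1 match to the cAMP response element and 3 to the Egr element, *Fosl2* had 1 to the Egr element, and *Fosb* had none. *Egr2* had 1 match to the serum response element and 1 to the antioxidant response element core. The windows of *Egr2* and *Fosb* lie within the annotated spans of these genes and are not printed. Among all 33469 promoters of the table, 1.50% held the serum response element in the same window, 10.1% the antioxidant response element core, 6.34% the AP-1 element, 1.59% the cAMP response element and 4.29% the Egr element. A match describes letters in this window and not the binding of a factor.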

How the data were processed

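Myotube RNA of 4 groups of 3 was measured on 1-colour Agilent arrays, 8 on the first slide and 4 on the second. The authors deposited scanner output from Agilent Feature Extraction 12.0.0.7, in which the processed signal is an intensity, corrected for background inside each array and not scaled across arrays. The authors also deposited a table of normalized log2 values for 25848 probes. Its scale was log2, its column medians ran from 9.21 to 9.24, and each column correlated best with its own array. Its background correction, normalization and filter are not given in the sources used here.

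Control spots and spots with an outlier mark were left out, spots of a probe were averaged as log2 of the processed signal, and the array's own 75th percentile was then subtracted. Tests covered the 24279 of 45598 probes that some group had well above background on each of its 3 arrays. RefSeq accessions, versions ignored, gave gene names by way of the RefSeq genes on GRCr8, the rat assembly, which matched 21109 probes (46.3%). All 12 arrays entered 1 fit with limma 3.58.1 in R 4.3.3 (group means, contrasts, eBayes, Benjamini-Hochberg over all tested probes at 0.05). The 95% intervals are from that fit and are not adjusted. The experiments used the same batch of cells, so the p-values measure the spread between these experiments.

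A gene was represented by its tested probe with the highest mean. All 10 genes were named in every comparison with the control. Between compounds, single values of some of the 10 genes are not reported. From each list, genes past the threshold with a log2 change of at least 1 were named, at most 6 per list and comparison, or the gene of largest change where none reached 1. Single values of some list genes are not reported here. The members, the lists and the tests were chosen with earlier results of these data known.

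The replicate numbers were checked for pairing. Over 18 pairs of arrays with the same number, the correlation of their deviations from the group means was 0.19 to 0.74, all above 0.1. Replicates 1 and 2 of every group lay on the first slide and replicate 3 on the second. A difference between slides could by itself give such correlations, so the check cannot tell pairing by experiment from the slide. Arrays with different numbers were not compared in it. The pairing used for the replicate block comes from the numbers in the sample labels. The alternatives were quantile normalization, normexp (offset 50) with either scaling, the deposited table, no filter, a filter that asks for signal above background on every array, the percentile taken over the probes it keeps, the 6 arrays compared, the replicate number or slide as a block, each slide alone, trend and robust eBayes settings, the mean over the probes of a gene, outlier spots kept, and each array left out in turn. Normexp used the median spot signal and median local background. The figures were drawn with matplotlib 3.10.9.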

Additional observations from a re-analysis of the deposited data

How the results depend on the processing

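The directions and calls of *Fosl1*, *Junb*, *Egr1*, *Ier3* and *Jun* with GR24 against the control were kept under all 21 alternatives, as far as a test was run (slide 2 alone has 1 array per group and no test). Their ranges were 1.38 to 1.66, 1.01 to 1.69, 0.84 to 1.07, 1.70 to 1.81 and -0.77 to -0.55. The counts of the 10 genes that moved by over 1.5 times were the following. With GR24 the 2 lower genes became 1 with quantile normalization, no filter, the percentile over probes above background on all arrays, the 6 arrays compared and the replicate block, and 1 to 2 without 1 array. With pinosylvin the 2 higher genes became 1 with quantile normalization, normexp with either scaling, the deposited table, no filter and trend and robust settings, and 1 to 3 without 1 array. With resveratrol the 0 lower genes became 2 with quantile normalization, normexp and quantile normalization, the percentile over probes above background, the replicate block, the slide as a block, slide 1 alone and trend and robust settings, 1 in the deposited table and with only probes above background on all arrays, and 0 to 1 without 1 array. For GR24 against pinosylvin the 3 higher genes became 5 with the mean over the probes of a gene. For GR24 against resveratrol the 1 lower gene became 2 with normexp and quantile normalization, the deposited table, the slide as a block, slide 1 alone and the mean over the probes, which for *Egr2* takes in a probe not well above background on 2 GR24 arrays, and 1 to 2 without 1 array. For pinosylvin against resveratrol the 1 higher gene became 2 with only probes above background on all arrays, the 6 arrays compared, the replicate block and trend and robust settings, and 3 with the slide as a block, and the 2 lower genes became 1 with no filter. The *Egr2* difference of GR24 from the control changed sign on slide 2 alone (0.18). The fit with the replicate number as a block changed no other call of the 10 genes than those given with the results. A value past the threshold in neither setting was not counted as reversed. Of the list counts, 63 moved by over 1.5 times and 537 did not, and the ranges are given with the lists. The marker list counts were not run in the alternatives. Over all probes, without a filter 1026 were higher with pinosylvin and 1070 with resveratrol, 1072 were higher and 903 lower in pinosylvin against resveratrol, and with only the 6 arrays compared 1083 were higher with pinosylvin and 1215 with resveratrol. With the slide as a block they were 4031 higher and 3043 lower with pinosylvin, 3524 and 3345 with resveratrol, and 3564 and 2879 in pinosylvin against resveratrol. Leaving out 1 array moved the higher counts to 1236 to 1810, 1192 to 1623 and 1086 to 1533, and the lower counts to 1530 to 1845, 1546 to 2270 and 1030 to 1282, in the same order. Without a filter the median log2 fold change over all probes was 0.12 for GR24, 0.11 for pinosylvin and -0.13 for resveratrol against the control, 0.24 for GR24 against resveratrol and 0.16 for pinosylvin against resveratrol. The cause of these changes was not tested.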
